A study of Mus musculus with 4 samples.

Results

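The arterial endothelial cells described here line the arteries and arterioles of the mouse brain. They were taken from single-cell RNA libraries of glia-enriched brain suspensions. An endothelial cell was a barcode with at least 1000 UMIs (unique molecular identifiers, the counted RNA molecules), at least 500 genes, at most 20% mitochondrial UMIs, at least 3 of the pan-endothelial genes Cldn5, Flt1, Pecam1, Cdh5, Ly6c1 and Egfl7, and at most 3 UMIs in all of C1qa, Ctss, Aqp4, Mog, Kcnj8 and Acta2, which mark other brain cells. Arterial cells were chosen by measured expression: an endothelial cell was called arterial when at least 2 of the 6 arterial genes Bmx, Sema3g, Gkn3, Gja4, Gja5 and Hey1 had a UMI. This rule found 606 arterial cells among 3675 endothelial cells, and 60717 of 74993 deposited barcodes passed the limits on UMIs, genes and mitochondrial share. The comparison class was the 2259 endothelial cells with none of the 6 genes.

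The mice were males that carried the human APOE4 or the human APOE3 allele in place of the mouse gene (targeted replacement). They received LPS (lipopolysaccharide, the bacterial cell-wall component that triggers systemic inflammation) or the NaCl vehicle by intraperitoneal injection, with LPS at 5 mg/kg, and brains were taken after 24 h. Each of the 4 groups, APOE4 LPS, APOE4 NaCl, APOE3 LPS and APOE3 NaCl, is 1 library of 3 pooled mice, so no difference between libraries has a replicate, and none is tested here. Intervals given for a library cover counting error only.

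Arteries, capillaries and veins of the brain form a continuous gradient of endothelial states. Notch signalling from Dll4 and Jag1 ligands through the transcription factor Rbpj sets and maintains the arterial state, with the Hey factors downstream. Arterial cells sit on an elastic wall, touch smooth muscle, and release vasoactive signals such as endothelin, while capillary cells carry most of the nutrient transporters of the blood-brain barrier and venous cells are the usual site of leukocyte capture in inflammation.

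The 6 genes of the rule have different products: Bmx is a cytoplasmic tyrosine kinase, Sema3g a secreted semaphorin, Gkn3 a secreted gastrokine, Gja4 and Gja5 gap-junction subunits, and Hey1 a repressor induced by Notch. Promoters are shown for Bmx, Sema3g and Gkn3, whose levels moved in different ways between LPS and NaCl libraries. Each is the RefSeq window of build GRCm38.p6 with 250 bases before and 50 after the gene start, 5′ to 3′ on the strand of the gene. Capitals mark TGGGAA, the core that Rbpj recognises, searched on both strands, so that TTCCCA is the same core on the other strand. The Bmx window (chrX:164258144-164258443, minus strand) holds 1 core, the Sema3g window (chr14:31217623-31217922, plus strand) 1, and the Gkn3 window (chr6:87388886-87389185, minus strand) 0.
Bmx: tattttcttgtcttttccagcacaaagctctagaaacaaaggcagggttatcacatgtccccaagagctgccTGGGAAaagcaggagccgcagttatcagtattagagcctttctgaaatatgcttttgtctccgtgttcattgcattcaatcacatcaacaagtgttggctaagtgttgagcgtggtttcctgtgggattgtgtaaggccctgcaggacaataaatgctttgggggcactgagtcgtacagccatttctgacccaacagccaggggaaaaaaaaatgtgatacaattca
Sema3g: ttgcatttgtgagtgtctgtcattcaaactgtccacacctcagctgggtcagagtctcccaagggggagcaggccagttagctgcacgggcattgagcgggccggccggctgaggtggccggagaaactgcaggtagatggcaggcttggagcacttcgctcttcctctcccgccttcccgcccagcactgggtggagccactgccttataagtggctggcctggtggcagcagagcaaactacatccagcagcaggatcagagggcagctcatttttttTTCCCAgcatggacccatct
Gkn3: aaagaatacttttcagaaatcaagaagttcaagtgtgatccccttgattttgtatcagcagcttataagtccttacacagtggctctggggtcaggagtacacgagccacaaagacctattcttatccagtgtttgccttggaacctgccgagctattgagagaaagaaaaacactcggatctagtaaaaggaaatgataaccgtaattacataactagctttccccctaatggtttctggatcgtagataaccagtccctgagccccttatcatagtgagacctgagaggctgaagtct
The core is common: it lies in 25.6% of 32851 such mouse windows, in 28.1% of the 32 windows matched to the list of other arterial genes and in 27.6% of the 29 windows of Notch pathway genes. A match is only a run of letters and says nothing of binding.

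Arterial cells made up 7.64% of endothelial cells in the APOE4 LPS library (57 of 746; exact 95% binomial interval 5.84 to 9.79%). They made up 17.9% in the APOE4 NaCl library (134 of 747; 15.3 to 20.9%), 17.0% in the APOE3 LPS library (175 of 1030; 14.7 to 19.4%) and 20.8% in the APOE3 NaCl library (240 of 1152; 18.5 to 23.3%). With the rule as given, the share was lower in the LPS library of each genotype, with intervals that do not overlap for APOE4 and do for APOE3. The rule needs UMIs, and depth differed: the median arterial cell had 8972 UMIs in APOE4 LPS, 5279.5 in APOE4 NaCl, 12267 in APOE3 LPS and 7749 in APOE3 NaCl, while the median cell with none of the 6 genes had 1880.5, 2437, 3993 and 3176 UMIs in the same order. The APOE4 LPS library thus stood apart, with deep arterial cells and shallow other ones. With every cell thinned to 1000 UMIs, 1.10% (9 of 819), 6.10% (45 of 738), 2.02% (24 of 1188) and 6.38% (74 of 1160) of endothelial cells met the rule in that order, so both LPS libraries were then below their NaCl libraries. The limits on endothelial and other-cell genes were applied again after thinning, so the endothelial cells counted there are not the same set. Thinning also lowers the UMIs of other-cell genes, so some cells passed only then. The order also turns on which genes are asked for. Cells with both Bmx and Sema3g were 4.42% of endothelial cells in APOE4 LPS against 6.83% in APOE4 NaCl, but 10.4% in APOE3 LPS against 6.94% in APOE3 NaCl. Without Gkn3 in the rule the shares were 7.10% in APOE4 LPS against 13.5% in APOE4 NaCl, and 16.7% in APOE3 LPS against 16.1% in APOE3 NaCl. Without Hey1 they were 6.70% against 13.7% for APOE4 LPS and NaCl, and 14.4% against 14.7% for APOE3 LPS and NaCl. The share in APOE4 LPS was thus below that in APOE4 NaCl under these 3 changes to the rule, while in APOE3 the order turned under 2 of them.

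**Figure D1:**
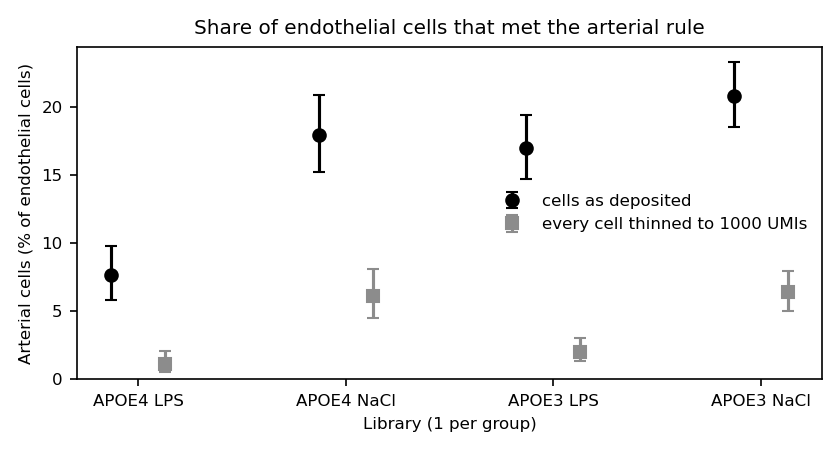
Share of endothelial cells that met the arterial rule (y axis, %) in each library (x axis), with cells as deposited (black circles) and with every cell thinned to 1000 UMIs (grey squares). Bars are exact 95% binomial intervals; the APOE4 LPS library is lowest at 7.64%, and after thinning both LPS libraries (1.10 and 2.02%) lie below both NaCl libraries (6.10 and 6.38%).

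Cells just inside and just outside the rule give a sense of its edge. There were 43, 66, 102 and 119 cells with exactly 2 of the 6 genes and 153, 142, 275 and 240 with exactly 1 in APOE4 LPS, APOE4 NaCl, APOE3 LPS and APOE3 NaCl. Mgp, a matrix protein of arterial walls that the rule did not use, had 1049, 217, 889 and 425 CPM (UMIs scaled to a total of 1000000 over the summed cells of a class in a library) in cells with 2 of the 6 genes. It had 1160, 131, 326 and 628 CPM in cells with 1 and 298, 89.9, 423 and 61.8 CPM in cells with none. Cells with 1 arterial gene were therefore above cells with none in 3 of the 4 libraries, and APOE3 LPS was the exception. Mgp is not confined to arterial cells: the kept barcodes outside the endothelial class had 409, 201, 461 and 338 CPM. These levels were above those of cells with none in each library. The part of carried-over RNA in the Mgp values was not tested.

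Few microglia met the arterial condition, which they should lack. At least 2 of the 6 arterial genes had a UMI in 0.0346, 0.0848, 0.0551 and 0.126% of microglia (3 of 8665, 3 of 3538, 3 of 5445 and 5 of 3961 cells, with median depths of 2120, 4683.5, 7591 and 4436 UMIs), in the same order of libraries. The libraries shared between 61 and 140 barcodes per pair, and 0 of them was an arterial cell. Of the arterial cells, 0, 12, 9 and 31 were called doublets by Scrublet and were kept; in APOE4 LPS Scrublet called 0 of 18182 barcodes, so there it gave no working call.

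The genes that chose the cells were themselves very unequal between libraries. Their levels are given as a description, for each gene in endothelial cells that carried at least 2 of the other 5, so that the gene did not choose the cells it is counted in. Gkn3 had 1.65 CPM in APOE4 LPS against 618 CPM in APOE4 NaCl, and 7.43 CPM in APOE3 LPS against 439 CPM in APOE3 NaCl. A Gkn3 UMI was seen in 5 of 57 APOE4 LPS, 89 of 134 APOE4 NaCl, 11 of 175 APOE3 LPS and 154 of 240 APOE3 NaCl arterial cells. Over all endothelial cells, where no arterial gene was asked for, Gkn3 was 54.5-fold lower in APOE4 LPS than in APOE4 NaCl (95% interval 30.3 to 110) and 46.0-fold lower in APOE3 LPS than in APOE3 NaCl (31.6 to 69.5). Hey1 had 12.2 CPM in APOE4 LPS against 128 CPM in APOE4 NaCl, and 39.5 CPM in APOE3 LPS against 121 CPM in APOE3 NaCl, which is 10.5-fold lower (4.87 to 27.0) and 3.07-fold lower (2.35 to 4.04). Over all endothelial cells Hey1 was 4.59-fold lower (3.23 to 6.69) in APOE4 LPS and 2.84-fold lower (2.36 to 3.43) in APOE3 LPS. Bmx was lower by less, at 71.0 against 209 CPM for APOE4 LPS and NaCl and 107 against 142 CPM for APOE3 LPS and NaCl. Over all endothelial cells Bmx was 1.72-fold lower (1.39 to 2.14) in APOE4 LPS, and its ratio in APOE3 was 0.883 (0.770 to 1.01). Sema3g was not lower: it had 107 CPM in APOE4 LPS against 112 CPM in APOE4 NaCl (ratio 0.954, 0.612 to 1.45), and 162 CPM in APOE3 LPS against 76.6 CPM in APOE3 NaCl (2.11-fold higher, 1.70 to 2.62). Over all endothelial cells Sema3g was 1.56-fold higher (1.26 to 1.93) in APOE4 LPS and 2.10-fold higher (1.81 to 2.43) in APOE3 LPS. The cells chosen by the other 5 genes are not like sets: for Bmx they were 30 in APOE4 LPS and 102 in APOE4 NaCl. The gap-junction genes were low everywhere, with Gja4 at 29.2, 36.8, 31.1 and 28.5 CPM and Gja5 at 4, 2, 11 and 3 UMIs in APOE4 LPS, APOE4 NaCl, APOE3 LPS and APOE3 NaCl. Cells were also counted by their exact combination of the 6 genes. In the LPS libraries Bmx with Sema3g alone was accordingly the most frequent, in 20 of 57 APOE4 and 49 of 175 APOE3 cells. Bmx with Gkn3 alone led in APOE3 NaCl, in 24 of 240 cells. In APOE4 NaCl it held 14 of 134 cells, level with Bmx, Sema3g and Gkn3 (14) and with those genes plus Hey1 (14). With other genes allowed, both Bmx and Sema3g were seen in 33 of 57 APOE4 LPS, 51 of 134 APOE4 NaCl, 107 of 175 APOE3 LPS and 80 of 240 APOE3 NaCl cells.

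**Figure D2:**
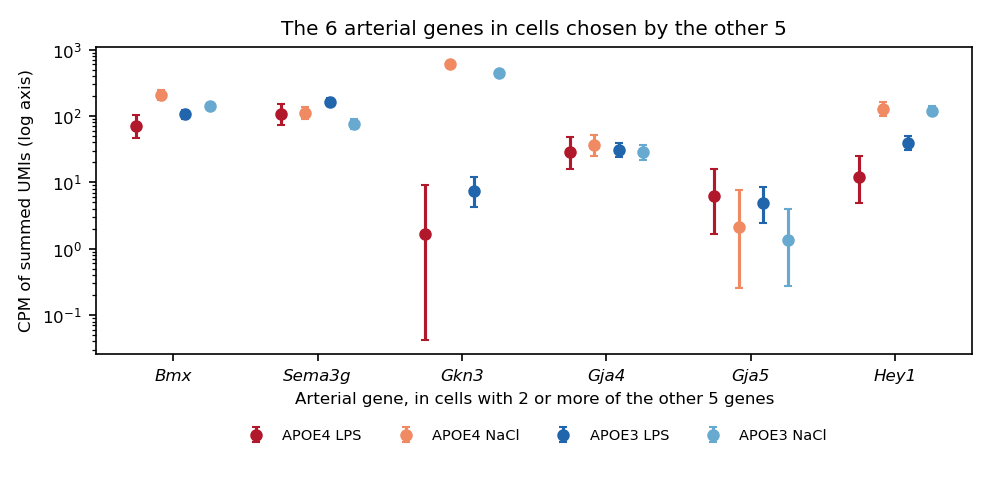
CPM of each arterial gene (y axis, log scale) in endothelial cells with at least 2 of the other 5 arterial genes (x axis, gene), coloured by library, with exact 95% counting intervals as bars. Gkn3 lies at 1.65 and 7.43 CPM in the LPS libraries against 618 and 439 CPM in the NaCl libraries, whereas Gja4 keeps to between 28.5 and 36.8 CPM.

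The first comparison asked what else marks the cells that the rule picked. UMIs were summed by library and class into 8 sums, and arterial cells were tested against cells with none of the 6 genes with edgeR's quasi-likelihood test, with the library as a block and the 18 genes of the rule left out. Of 11565 genes, 573 were higher (4.95%) and 556 lower (4.81%) in arterial cells at a Benjamini-Hochberg adjusted p under 0.05. Of 29 tested arterial genes outside the rule, 20 were higher and 1 was lower (median log2 fold change 0.85, against 0.00 over all genes). Markers of mural cells were called higher too, in 9 of 10 cases for pericytes and 5 of 6 for smooth muscle. Of 19 venous genes 5 were lower and 0 higher.

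The wall and matrix genes gave some of the clearest differences. Mgp (matrix Gla protein, ENSMUSG00000030218, an inhibitor of calcification) had 1148, 863, 1344 and 611 CPM in arterial cells of APOE4 LPS, APOE4 NaCl, APOE3 LPS and APOE3 NaCl, against 298, 89.9, 423 and 61.8 CPM in cells with none of the 6 genes (log2 fold change 2.46, SE 0.27, adjusted p = 0.0015). Eln, which encodes elastin, had 44.9, 102, 36.0 and 69.4 CPM against 9.31, 17.9, 7.66 and 12.1 CPM in the same order (2.38, SE 0.14, adjusted p = 0.00019). For both genes the lowest arterial sum was above the highest of the other class. Kept barcodes outside the endothelial class held Mgp too, at 409, 201, 461 and 338 CPM, and Eln at 4.26, 2.89, 3.49 and 5.18 CPM. The elastic-fibre proteins Fbln5 (2.61, SE 0.41, adjusted p = 0.0061) and Fbln2 (2.96, SE 0.42, adjusted p = 0.0043) and the basement-membrane collagen Col18a1 (2.52, SE 0.28) were higher as well; the Fbln2 call was lost with a library left out (highest adjusted p 0.059). Of 27 matrix genes 11 were higher and 0 lower (median 0.43).

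Secreted signals formed a second group. Vegfc, a growth factor best known for lymphatic vessels, had 40.2, 110, 45.1 and 98.2 CPM in arterial cells of APOE4 LPS, APOE4 NaCl, APOE3 LPS and APOE3 NaCl, against 8.21, 6.84, 8.58 and 15.1 CPM in cells with none of the 6 genes (log2 2.80, SE 0.23, adjusted p = 0.00044). Edn1, the precursor of the vasoconstrictor endothelin, had 186, 265, 175 and 269 CPM against 52.0, 109, 44.7 and 82.6 CPM (1.66, SE 0.12, adjusted p = 0.00029). Every arterial sum was above every other sum for both genes. Efnb2, the arterial ephrin ligand whose receptor EphB4 marks veins, had 38.7, 97.5, 75.9 and 89.2 CPM against 15.9, 37.9, 13.5 and 31.0 CPM (1.67, SE 0.20, adjusted p = 0.0019). Unc5b, a netrin receptor of arterial cells, was higher by 1.45 (SE 0.12) and the Wnt antagonist Dkk2 by 2.23 (SE 0.45, adjusted p = 0.018; 0.09 at most with a library left out). Adm, which encodes the vasodilator adrenomedullin, was lower, at 30.9, 13.8, 36.9 and 18.004 CPM in arterial cells against 54.2, 31.6, 126 and 48.2 CPM in the others (log2 -1.44, SE 0.16, adjusted p = 0.0015).

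In the Notch pathway 9 of 28 tested genes were higher and 2 lower (median 0.24). Among ligands, Jag1 had 101, 197, 71.1 and 127 CPM in arterial cells against 48.2, 83.6, 43.5 and 84.4 CPM in cells with none of the 6 genes (log2 0.85, SE 0.12, adjusted p = 0.0046), and Dll4 had 55.7, 56.1, 80.7 and 48.9 CPM against 26.8, 33.1, 47.5 and 36.5 CPM (0.69, SE 0.12, adjusted p = 0.012), each in the order APOE4 LPS, APOE4 NaCl, APOE3 LPS and APOE3 NaCl. Both ligands were higher in arterial cells within every library, although the values of the classes overlap between libraries. The receptors Notch1 (0.52, SE 0.08, adjusted p = 0.0057) and Notch4 (0.48, SE 0.11, adjusted p = 0.03) and the target Hey2 (1.24, SE 0.22, adjusted p = 0.012) were higher. Hes5, a target used mainly by neural cells, was lower (-1.75, SE 0.28). Sox17, the arterial transcription factor, had 173, 544, 206 and 434 CPM against 126, 317, 138 and 271 CPM (0.61, SE 0.08, adjusted p = 0.0029).

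TGF-beta and BMP genes were higher in 9 of 21 cases and lower in 0 (median 0.34). The ligand Tgfb2 had 130, 430, 89.3 and 366 CPM in arterial cells of APOE4 LPS, APOE4 NaCl, APOE3 LPS and APOE3 NaCl, against 48.2, 159, 36.1 and 156 CPM in cells with none of the 6 genes (log2 1.32, SE 0.08, adjusted p = 0.00019). The inhibitors Smad6 (1.26, SE 0.10) and Smad7 (0.52, SE 0.09), the receptor Eng (0.37, SE 0.06) and the targets Id1 (0.35, SE 0.06) and Id3 (0.40, SE 0.07) were higher too. Among vasoactive and shear-responsive genes 8 of 26 were higher and 2 lower (median 0.17), with the flow-induced factors Klf2 (0.40, SE 0.07, adjusted p = 0.01) and Klf4 (0.69, SE 0.09, adjusted p = 0.0029) among the higher. Immediate-early and heat-shock genes, which tissue dissociation is also known to induce, were higher in 13 of 21 cases and lower in 1 (median 0.71). Nr4a1 had 155, 183, 138 and 96.5 CPM against 52.6, 32.1, 44.4 and 27.7 CPM (1.83, SE 0.15, adjusted p = 0.00044), and Fos was higher by 1.38 (SE 0.13).

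Genes of the other vessel types went the other way or did not differ as a group. Of 19 venous genes 0 were higher and 5 lower (median -0.64). Tmsb10, an actin-binding thymosin, had 899, 418, 1014 and 517 CPM in arterial cells of APOE4 LPS, APOE4 NaCl, APOE3 LPS and APOE3 NaCl, against 1724, 1152, 1963 and 1349.9 CPM in cells with none of the 6 genes (log2 -1.21, SE 0.10, adjusted p = 0.00044). The interleukin-1 receptor Il1r1 had 169, 20.1, 72.0 and 36.0 CPM against 187, 116, 157 and 87.4 CPM (-1.14, SE 0.26, adjusted p = 0.026); the 2 classes were nearly level in APOE4 LPS and far apart in APOE4 NaCl. Of 19 capillary genes 3 were higher and 1 lower (median 0.08), and of 27 barrier genes 4 were higher and 1 lower (median 0.16). The lipid transporter Mfsd2a, a capillary gene, did not pass (0.09, adjusted p = 0.51), while the transferrin receptor Tfrc was lower (-0.39, SE 0.10, adjusted p = 0.043). The chemokine Cxcl12, listed as both arterial and capillary, did not pass either (0.22, adjusted p = 0.23).

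**Figure D3:**
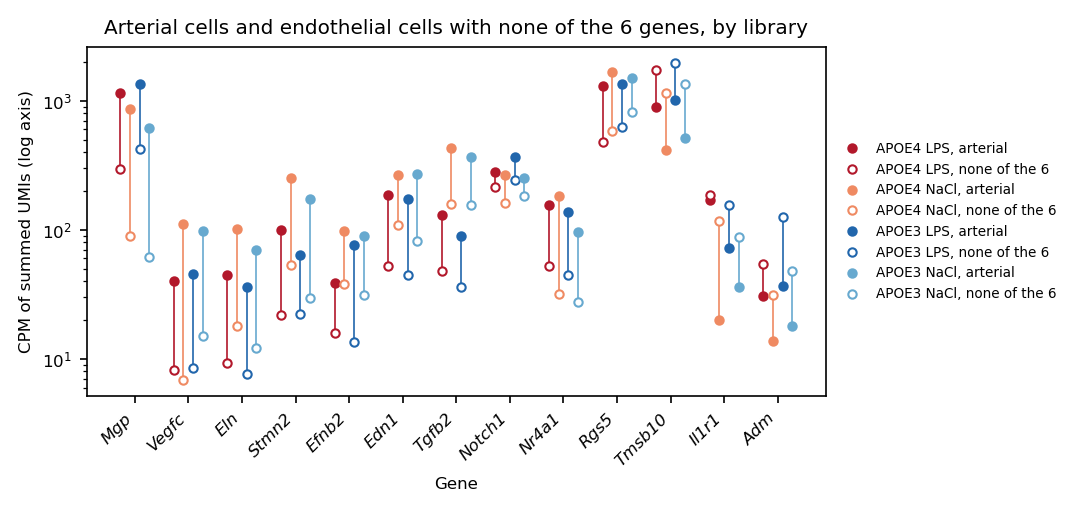
CPM of 13 genes (y axis, log scale; gene on the x axis) in arterial cells (filled) and in cells with none of the 6 arterial genes (open), joined by a line within each library and coloured by library. Mgp, Vegfc, Eln, Edn1 and Tgfb2 are higher in arterial cells in all 4 libraries, and Tmsb10 and Adm are lower in all 4.

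Ranked by size among genes with an adjusted p under 0.05, at least 50 UMIs and the same sign in all 4 libraries, the first was Nos1, neuronal nitric oxide synthase, with 18.6, 24.4, 13.0 and 12.9 CPM in arterial cells of APOE4 LPS, APOE4 NaCl, APOE3 LPS and APOE3 NaCl, against 0.548, 1.58, 0.306 and 0 CPM in cells with none of the 6 genes (log2 4.88, SE 0.48, adjusted p = 0.00096). The long non-coding RNA gene Mannr followed, with 24.8, 55.1, 27.8 and 47.2 CPM against 0.548, 3.16, 1.84 and 2.71 CPM (4.12, SE 0.25). Both were at or near 0 in the other class, and low even in arterial cells. Pi16 (3.49, SE 0.34), a secreted peptidase inhibitor, Fabp4 (3.09, SE 0.33), a fatty-acid carrier for which 1 cell gave 95.5% of the arterial UMIs in APOE4 LPS, Epb41l4a (2.88), Lypd1 (2.78), Slc12a8 (2.76), Gask1b (2.73), Kazald1 (2.56), Gcnt1 (2.53), Plcg2, Lama3 and Egfl8 were also among the 20 largest. The calls of Kazald1 and Gcnt1 were lost with a library left out (highest adjusted p 0.0735 and 0.055). Stmn2, a microtubule regulator used as a neuron marker, was higher at 99.0, 252, 63.3 and 174 CPM against 21.9, 53.6, 22.4 and 29.5 CPM (2.12, SE 0.16, adjusted p = 0.00034); of the 10 neuron markers tested it was the only one higher, and Gad1 was lower.

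Among the 10 lowest genes were genes of other cells. Ttr, which choroid plexus makes in large amounts, had 4303, 1616, 2273 and 8891 CPM in arterial cells and 27566, 23161, 7660.0 and 28466 CPM in the others, in the order APOE4 LPS, APOE4 NaCl, APOE3 LPS and APOE3 NaCl (log2 -2.50, SE 0.32, adjusted p = 0.003). Adarb2 (-3.52), Gm5127 (-3.50), Nxph1 (-3.31), Lhfpl3 (-2.75), Mia (-2.68), Cysltr1 (-2.51), Matn4 (-2.43), Bcas1 (-2.43) and Cxcl10 (-2.33) completed that group. The calls of Mia, Matn4, Bcas1 and Cxcl10 were lost with a library left out (highest adjusted p 0.057, 0.109, 0.074 and 0.068). The acute-phase protein Saa3, named after its values were seen, had 228, 0, 5.64 and 0 CPM in arterial cells against 654, 0, 260 and 0.301 CPM in the others (-2.88, adjusted p = 0.028). It held no UMI in either class of APOE4 NaCl, so it has no sign there, and its call was lost with a library left out (highest adjusted p 0.056). Summed microglia markers were 107, 64.6, 110 and 72.0 CPM in arterial cells against 729, 160, 174 and 105 CPM in the others; astrocyte markers were 3385, 2147, 2208 and 2380 CPM against 3741, 2190, 2818 and 2713 CPM. Of 7 microglia markers 4 were lower, of 12 astrocyte markers 7 were lower and 1 higher, and of 10 oligodendrocyte markers 4 were lower and 1 higher. The part of carried-over RNA in the lower genes was not tested.

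**Figure D4:**
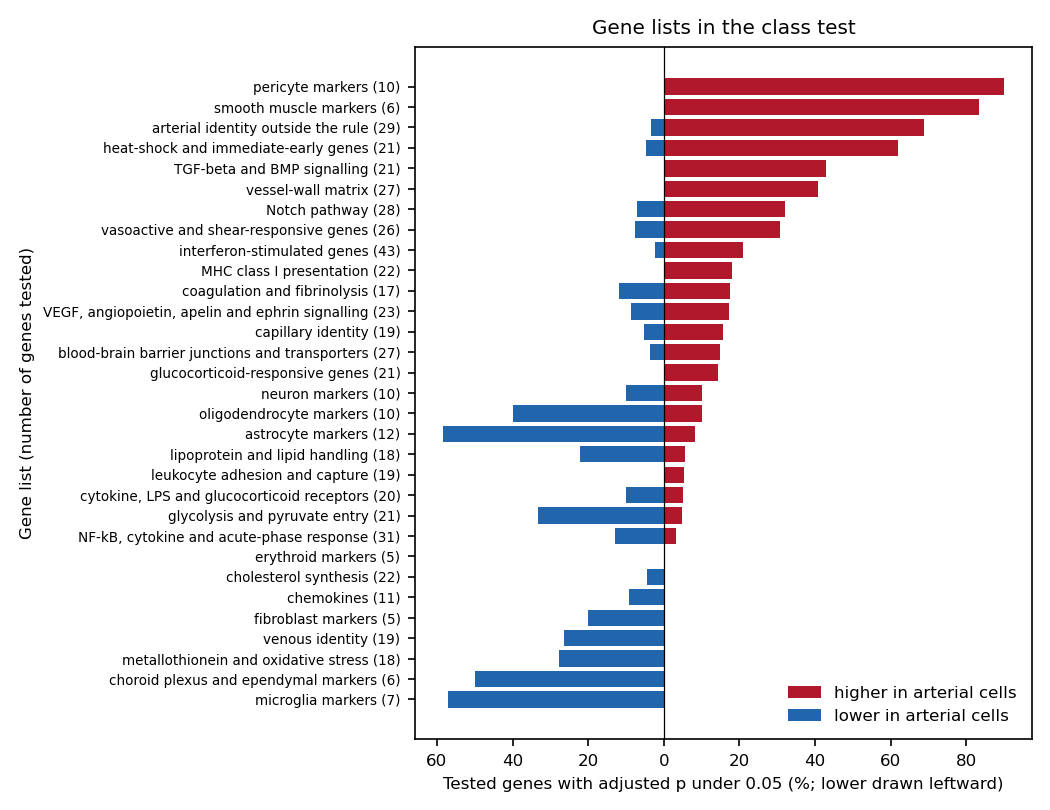
Percent of tested genes of each list (y axis, with the number tested) that were higher (red, rightward) or lower (blue, leftward) in arterial cells at an adjusted p under 0.05. Arterial genes outside the rule reach 20 of 29 higher, below the 9 of 10 pericyte markers and 5 of 6 smooth muscle markers, and venous genes have 5 of 19 lower.

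Markers of mural cells, the pericytes and smooth muscle that wrap these vessels, moved with the arterial class. Of 10 pericyte markers 9 were higher and of 6 smooth muscle markers 5 were higher. Rgs5, the main pericyte gene, had 1306, 1680.2, 1335 and 1502.5 CPM in arterial cells of APOE4 LPS, APOE4 NaCl, APOE3 LPS and APOE3 NaCl, against 482, 581, 627 and 812 CPM in cells with none of the 6 genes (log2 1.20, SE 0.11, adjusted p = 0.00054). Summed pericyte markers were 2890, 3227, 2605 and 2614 CPM against 1111, 1098, 1264 and 1539 CPM, and smooth muscle markers 460, 591, 382 and 565 CPM against 237, 332, 261 and 372 CPM. A limit of 3 UMIs over the mural genes Rgs5, Vtn, Tagln and Myh11 in each cell left 20, 71, 54 and 102 arterial cells. With it, 205 genes were higher and 104 lower, of which 182 and 62 were among the calls without the limit. Rgs5 is itself a limited gene. Its value under the limit (-0.34, adjusted p = 0.36 by the edgeR test) was therefore set by the choice of cells and is no check on mural RNA. Mgp (4.48), Eln (3.77), Vegfc (3.66), Edn1 (2.29) and Tgfb2 (1.56) had larger fold changes under the limit than before. Limits on depth changed less: with at least 4000 UMIs per cell, 410 genes were higher and 468 lower, of which 384 and 403 were shared with the calls over all cells. That limit did not make depth equal. The median arterial cell then had 11740.5, 7999, 13864 and 11089 UMIs in the same order of libraries. The median cell with none of the 6 genes had 6198, 6433.5, 7328 and 6745 UMIs. The part of depth in the class calls is therefore not settled by it.

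The next comparison set LPS against NaCl within arterial cells of each genotype. A gene was measured when at least 1 of the 2 sums held 10 UMIs, and called when the CPM ratio passed 2-fold; these calls rest on 1 library a group and carry no p-value. In APOE4, 725 of 9761 genes were called higher in LPS (7.43%) and 1013 lower (10.4%). In APOE3, 727 of 12181 were higher (5.97%) and 1573 lower (12.9%). The median gene stood at a log2 ratio of -0.07 in APOE4 and -0.14 in APOE3, and ratios are to be read against that. The 2 comparisons have no library in common: among the 9736 genes measured in both, 314 were higher in both, which is 43.8% of the 717 higher in APOE4 and 66.4% of the 473 higher in APOE3, and 401 were lower in both, which is 40.1% of 1001 and 48.4% of 828.

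More genes of arterial identity were called lower than higher in LPS. Of those outside the rule, 14 of 29 were called lower and 1 higher in APOE4 (median log2 ratio -0.97), and 12 of 30 lower and 3 higher in APOE3 (median -0.90). Fbln2, the fibulin of elastic walls, had 9.29 CPM in APOE4 LPS against 97.5 CPM in APOE4 NaCl, 10.5-fold lower (4.64 to 29.3), and 2.17 CPM in APOE3 LPS against 66.9 CPM in APOE3 NaCl, 30.8-fold lower (12.9 to 96.3). Alpl, alkaline phosphatase, had 24.8 CPM in APOE4 LPS against 235 CPM in APOE4 NaCl, 9.50-fold lower (5.72 to 16.9), and 33.8 CPM in APOE3 LPS against 228 CPM in APOE3 NaCl, 6.75-fold lower (5.32 to 8.68). Ltbp4, which tethers latent TGF-beta to the matrix, had 94.4 CPM in APOE4 LPS against 870 CPM in APOE4 NaCl, and 88.5 CPM in APOE3 LPS against 828 CPM in APOE3 NaCl. Both LPS libraries were far below both NaCl libraries for these 3 genes. In cells with none of the 6 genes, the LPS over NaCl log2 ratio of Alpl was -3.62 in APOE4 and -2.60 in APOE3. That of Ltbp4 was -3.08 in APOE4 and -3.29 in APOE3, so neither fall was confined to arterial cells. Fbln2 fell less in that class than in arterial cells, at -0.68 in APOE4 and -2.30 in APOE3. These log2 ratios have 0.5 UMI added to each sum.

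Cxcl12, the chemokine that holds leukocytes at the outer vessel wall, had 373 CPM in APOE4 LPS against 2066 CPM in APOE4 NaCl, and 355 CPM in APOE3 LPS against 2183 CPM in APOE3 NaCl. Sox17 was 3.14-fold lower in APOE4 LPS and 2.11-fold lower in APOE3 LPS, Tgfb2 3.31-fold and 4.10-fold lower, Vegfc 2.74-fold and 2.18-fold lower, and Stmn2 2.55-fold and 2.76-fold lower. Efnb2 was 2.52-fold lower in APOE4 LPS and 1.18-fold lower in APOE3 LPS. The Notch pathway as a list stayed near the median gene, with 1 of 25 called higher and 3 lower in APOE4 (median -0.01) and 1 of 28 higher and 2 lower in APOE3 (median 0.03). Its ligand Dll4 had ratios of 0.992 in APOE4 and 1.65 in APOE3, Notch1 1.07 and 1.46, Hey2 1.61 and 1.03, the fringe gene Lfng 0.284 and 0.209, and the feedback inhibitor Nrarp 2.65 and 3.15. Mgp was not lower: its ratio was 1.33 in APOE4 and 2.20 in APOE3.

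More capillary and barrier genes were likewise called lower than higher. Of 19 capillary genes, 10 were called lower and 1 higher in APOE4 (median -1.30) and 11 lower and 0 higher in APOE3 (median -1.59). Of 27 barrier genes, 8 were lower and 0 higher in APOE4 (median -0.64) and 9 lower and 1 higher in APOE3 (median -0.84). Itm2a, a membrane protein of brain endothelium, had 565 CPM in APOE4 LPS against 3175 CPM in APOE4 NaCl, and 328 CPM in APOE3 LPS against 3125 CPM in APOE3 NaCl. The transporters Slc22a8 (organic anions), Slc7a5 (large amino acids), Tfrc (transferrin) and Mfsd2a (lysolipids) were 3.34-, 2.96-, 4.15- and 3.27-fold lower in APOE4 LPS and 9.07-, 4.94-, 6.70- and 2.88-fold lower in APOE3 LPS. The glucose transporter Slc2a1 was not: its ratio was 1.02 in APOE4 and 1.49 in APOE3. The efflux pump Abcb1a was 1.41- and 1.49-fold lower and the junction protein Ocln 1.56- and 1.35-fold lower, inside the 2-fold limit. In cells with none of the 6 genes the medians were -1.82 in APOE4 and -1.49 in APOE3 for capillary genes, and -0.97 and -0.69 for barrier genes.

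The genes with the highest ratios were led by secreted and acute-phase products. Adamts9, a matrix protease, had 1685 CPM in APOE4 LPS (53 of 57 cells with a UMI) against 9.53 CPM in APOE4 NaCl (7 of 134 cells), 177-fold higher (92.8 to 388), and 2538 CPM in APOE3 LPS (170 of 175 cells) against 30.4 CPM in APOE3 NaCl (37 of 240 cells), 83.4-fold higher (66.0 to 107). Ch25h, which makes 25-hydroxycholesterol, had 356 CPM in APOE4 LPS (40 cells) against 3.18 CPM in APOE4 NaCl (3 cells), and 433 CPM in APOE3 LPS (146 cells) against 7.29 CPM in APOE3 NaCl (13 cells). Ctla2a, a cathepsin inhibitor, was 26.5-fold higher (24.3 to 28.9) in APOE4 LPS and 20.1-fold higher (19.2 to 21.2) in APOE3 LPS. These 3 were seen in most arterial cells of both LPS libraries. Upp1, uridine phosphorylase, was 41.6-fold higher in APOE4 LPS and 57.2-fold higher in APOE3 LPS, and Tmem252 9.89- and 13.1-fold. Lrg1, a secreted glycoprotein of the acute phase, had 169 CPM in APOE4 LPS against 0 CPM in APOE4 NaCl, at least 53.1-fold higher on a floor of 3 UMIs, and 140 CPM in APOE3 LPS against 2.57 CPM in APOE3 NaCl, 54.3-fold higher (24.7 to 149). In cells with none of the 6 genes, Adamts9 was 132-fold higher in APOE4 LPS and 21.2-fold in APOE3 LPS. Ch25h was 12.6- and 32.4-fold and Lrg1 3.79- and 12.9-fold higher in that class. Ctla2a was 9.18-fold and Upp1 9.63-fold higher there in APOE3 LPS. The rises of these genes were thus not confined to arterial cells.

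The iron-scavenging protein Lcn2 had 3776 CPM in APOE4 LPS (39 cells with a UMI) against 1.06 CPM in APOE4 NaCl (1 cell), and 1400 CPM in APOE3 LPS (133 cells) against 51.9 CPM in APOE3 NaCl (8 cells, of which 1 gave 90.9% of the UMIs). Without the top cell of each library the APOE3 ratio was 268 in place of 27.0. A UMI of Lcn2 was seen in 68.4% of arterial cells of APOE4 LPS (median 8972 UMIs a cell) and 76.0% of those of APOE3 LPS (12267 UMIs), against 48.5% (2120 UMIs) and 17.0% (7591 UMIs) of cells picked by microglia genes in those libraries. Thinned to 1000 UMIs, 49.1% of arterial cells of APOE4 LPS and 46.3% of those of APOE3 LPS held a UMI, against 53.7% and 47.1% of cells with none of the 6 genes. Microglia were not thinned, so the arterial share that background RNA could give was not measured at equal depth. Lcn2 is also a neutrophil gene. Of 10 neutrophil markers, 8, 8, 4 and 2 were at 0 in arterial cells of APOE4 LPS, APOE4 NaCl, APOE3 LPS and APOE3 NaCl, and the summed level was 3779, 2.12, 1429 and 1609 CPM, nearly all of it Lcn2 in the LPS libraries.

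Several secreted ligands were found in LPS libraries and hardly at all in NaCl libraries. Inhbb, a subunit of activin B, had 60.4 CPM in APOE4 LPS (13 cells) against 1.06 CPM in APOE4 NaCl (1 cell), and 91.9 CPM in APOE3 LPS (49 cells) against 0 CPM in APOE3 NaCl, there at least 71.5-fold higher. Tnfsf8, the CD30 ligand, had 113 CPM in APOE4 LPS (13 cells) and 73.3 CPM in APOE3 LPS (40 cells), against 0 CPM in both NaCl libraries. The aggrecanase Adamts4 had 111 CPM in APOE4 LPS (19 cells) against 0 CPM in APOE4 NaCl, and 79.8 CPM in APOE3 LPS (74 cells) against 0.857 CPM in APOE3 NaCl (1 cell). Unlike Adamts9, these 3 genes were each seen in a minority of the cells of both LPS libraries. Stc1, the hormone stanniocalcin, was 17.9-fold higher (8.73 to 42.6) in APOE4 LPS and 36.9-fold higher (18.5 to 86.3) in APOE3 LPS. Csf3, the granulocyte growth factor G-CSF, had 234 CPM in 14 cells of APOE4 LPS, 1 of which gave 41.1% of the UMIs, and 22.99 CPM in 17 cells of APOE3 LPS, against 0 CPM in both NaCl libraries. Cells with none of the 6 genes showed these rises too. In that class of APOE3 LPS and NaCl, Tnfsf8 had 142 against 0.603 CPM and Inhbb 68.0 against 1.81 CPM. Adamts4 had 55.8 against 2.71 CPM and Stc1 59.7 against 1.81 CPM there. In that class of APOE4 LPS and NaCl, Csf3 had 349 against 0 CPM. AA467197 (156 against 0 CPM for APOE4 LPS and NaCl, 62.9 against 3.43 CPM for APOE3 LPS and NaCl) and Gm48727 (15.5 against 2.12 CPM for APOE4 LPS and NaCl, 35.1 against 0 CPM for APOE3 LPS and NaCl) were also among the highest of a genotype, as were Ackr1, Saa3 and Gpx3 in APOE4. The lowest ratios by the same rule belonged in APOE4 to haemoglobin genes (Hbb-bs, Hba-a1, Hba-a2, Hbb-bt) and neuron genes (Kcnip4, Dpp10, Nrg1, Tenm2). In APOE3 they belonged to neutrophil genes (Ngp, Camp, S100a8, S100a9, Ltf, Wfdc21) with Sgcz and Kcnip4. A few NaCl cells gave most of the UMIs of these genes. For each neutrophil gene, 1 APOE3 NaCl cell gave between 99.7 and 100% of the UMIs.

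NF-kB, cytokine and acute-phase genes were called higher in 21 of 30 cases and lower in 0 in APOE4 (median 2.25), and in 21 of 32 and 0 in APOE3 (median 1.46). In cells with none of the 6 genes the medians were 1.42 in APOE4 and 1.65 in APOE3, with 21 of 33 and 21 of 32 higher, against 8.37% and 8.02% of all genes measured in that class. The transcription factor Cebpb had 209 CPM in APOE4 LPS against 22.2 CPM in APOE4 NaCl, and 64.2 CPM in APOE3 LPS against 24.0 CPM in APOE3 NaCl. Tnfaip3, the A20 inhibitor of NF-kB, was 8.58-fold higher in APOE4 LPS and 3.41-fold higher in APOE3 LPS, Nfkb2 9.50- and 3.29-fold, and the cytokine-signalling inhibitor Socs3 6.57- and 2.67-fold. Il4ra, a receptor for interleukins of type-2 responses, was 6.57- and 8.002-fold higher, while the fast-acting inhibitor Nfkbia stayed inside 2-fold, at ratios of 1.25 and 1.52. Interferon-stimulated genes were called higher in 14 of 42 cases and lower in 1 in APOE4 (median 0.40), and higher in 7 of 43 and lower in 2 in APOE3 (median 0.11). Ifitm3, a membrane antiviral protein, had 3066 CPM in APOE4 LPS against 1185 CPM in APOE4 NaCl, and 2950 CPM in APOE3 LPS against 839 CPM in APOE3 NaCl. The guanylate-binding gene Gbp2 had a ratio of 3.83 in APOE4 and 0.789 in APOE3, and the immunity-related GTPase Iigp1 3.73 and 1.08. MHC class I genes were called higher in 3 of 22 cases in APOE4 (median 0.51) and 6 of 22 in APOE3 (median 0.54).

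The chemokines Cxcl1 and Cxcl2, which attract neutrophils, were among the 12 genes with the highest lower bounds in APOE4, and their promoters are shown because both hold the same site. The windows are from GRCm38.p6, with 250 bases before and 50 after the start, on the plus strand at chr5:90890995-90891294 for Cxcl1 and chr5:90903649-90903948 for Cxcl2. Capitals mark GGGAA, any 1 base and TTCC, a common form of the NF-kB site, searched on both strands; in each window it matches once on each strand and the matches overlap.
Cxcl1: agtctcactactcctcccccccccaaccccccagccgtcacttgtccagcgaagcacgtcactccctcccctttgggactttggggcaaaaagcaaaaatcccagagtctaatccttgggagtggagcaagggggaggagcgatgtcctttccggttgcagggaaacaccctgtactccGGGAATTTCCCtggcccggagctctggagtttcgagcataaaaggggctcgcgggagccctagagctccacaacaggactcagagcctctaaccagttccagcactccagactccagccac
Cxcl2: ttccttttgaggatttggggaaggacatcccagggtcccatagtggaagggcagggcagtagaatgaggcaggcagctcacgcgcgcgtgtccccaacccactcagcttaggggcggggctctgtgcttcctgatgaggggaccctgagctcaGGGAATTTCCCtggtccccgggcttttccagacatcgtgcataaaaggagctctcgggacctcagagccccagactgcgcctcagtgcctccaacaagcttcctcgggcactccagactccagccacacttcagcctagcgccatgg
This site is rare: it lies in 0.341% of the 32851 mouse windows (112), and in those of 4 of 12 matched chemokine genes, Cxcl1, Cxcl10, Cxcl2 and Cxcl3. In the NF-kB, cytokine and acute-phase list it lies in 2.78% of 36 windows, those of 1 of 29 matched genes, Nfkbia. Cxcl1 had 351 CPM in APOE4 LPS against 2.12 CPM in APOE4 NaCl, but 11 cells held it and 1 of them gave 67.8% of the UMIs; in APOE3 LPS it had 42.9 CPM in 20 cells against 6.43 CPM in APOE3 NaCl. Cxcl2 had 178 CPM in 9 cells of APOE4 LPS and 45.5 CPM in 10 cells of APOE3 LPS, against 0 CPM in both NaCl libraries. These chemokines were thus found in a minority of the arterial cells of an LPS library.

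Venous and leukocyte-capture genes were higher in LPS, with a few cells behind much of it. Of 17 venous genes, 11 were called higher and 0 lower in APOE4 (median 1.72), and of 18, 8 higher and 1 lower in APOE3 (median 0.99). Without the top cell of each gene and library, 9 of 16 were higher in APOE4 (median 1.17) and 8 of 17 in APOE3 (median 0.996). Vwf, which tethers platelets, had 506 CPM in APOE4 LPS against 195 CPM in APOE4 NaCl, and 545 CPM in APOE3 LPS against 197 CPM in APOE3 NaCl. Il1r1 was 8.38-fold higher in APOE4 LPS and 1.999-fold in APOE3 LPS. Icam1, a leukocyte adhesion molecule, was 11.01-fold higher (6.15 to 21.4) in APOE4 LPS, of which 1 cell gave 51.0% of the UMIs and without which the ratio was 7.29, and 3.96-fold higher in APOE3 LPS. Vcam1 was 4.83-fold higher in APOE4 LPS, or 1.83-fold without a cell that gave 71.5%, and 2.79-fold higher in APOE3 LPS. Sele, the inducible selectin of venules, had 186 CPM in APOE4 LPS, from 4 cells of which 1 gave 92.5%, against 0 CPM in APOE4 NaCl.

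Coagulation, glucocorticoid and matrix genes completed the response. Of coagulation and fibrinolysis genes, 7 of 15 were called higher and 1 lower in APOE4 (median 0.96) and 7 of 17 higher and 2 lower in APOE3 (median 0.60). The plasminogen activator Plat had 687 CPM in APOE4 LPS against 174 CPM in APOE4 NaCl, and 812 CPM in APOE3 LPS against 173 CPM in APOE3 NaCl. Plaur, the urokinase receptor, was 15.5- and 10.0-fold higher. The protein C receptor Procr was 8.22- and 5.24-fold higher. Glucocorticoid-responsive genes were called higher in 8 of 19 cases in APOE4 (median 0.11) and 8 of 22 in APOE3 (median 0.68), with 0 lower in either: Fkbp5, a chaperone of the glucocorticoid receptor, had 99.0 CPM in APOE4 LPS against 11.7 CPM in APOE4 NaCl, and 160 CPM in APOE3 LPS against 12.003 CPM in APOE3 NaCl. Ptgs2, the inducible cyclooxygenase, was 22.6-fold higher (11.5 to 50.4) in APOE4 LPS and 11.9-fold (7.25 to 20.8) in APOE3 LPS. The basement-membrane collagen Col4a1 was 4.20- and 4.25-fold higher and the protease Adamts1 8.55- and 9.33-fold. Of matrix genes, 5 of 23 were called higher and 5 lower in APOE4, and 5 of 27 higher and 6 lower in APOE3. Immediate-early and heat-shock genes, by contrast, were called higher in 0 of 21 cases in APOE4 and 2 of 21 in APOE3, with 0 lower.

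**Figure D5:**
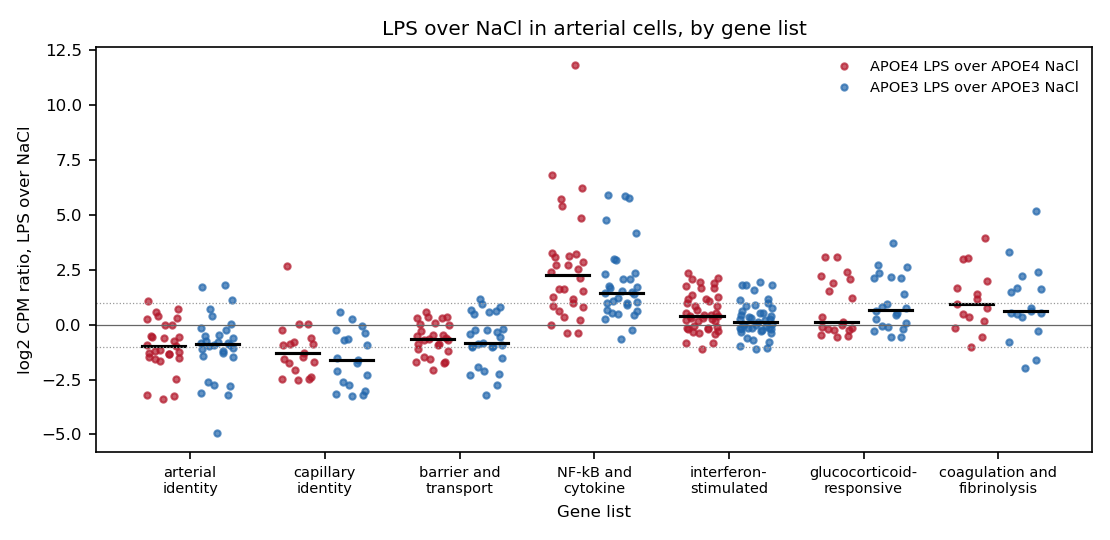
log2 CPM ratio of LPS over NaCl in arterial cells (y axis) for the measured genes of 7 lists (x axis), in APOE4 (red) and APOE3 (blue); each point is 1 gene, a gene at 0 UMIs in the NaCl or LPS sum stands at its bound on a floor of 3 UMIs, black lines are medians and dotted lines mark 2-fold. Arterial, capillary and barrier medians lie below 0 in both genotypes, from -0.64 to -1.59, and NF-kB medians above it, at 2.25 and 1.46.

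Whether arterial cells differed from the other class in their LPS ratio was taken from the ratio of ratios in each genotype. Of 8900 genes, 109 were higher and 130 lower in arterial cells in both genotypes, with intervals that exclude no difference. Of the 8 highest, Ch25h was 2.95 higher on the log2 scale in APOE4 (1.37 to 4.52) and 0.84 in APOE3 (0.06 to 1.62), and the signalling protein Wnt5a 2.16 (1.15 to 3.16) and 1.37 (0.67 to 2.06). Lrg1 was 1.97 higher in APOE3 (0.80 to 3.15); in APOE4 its arterial NaCl sum held 0 UMIs, so the value there rests on an added 0.5 UMI and only its interval is given, 2.39 to 10.4. The other 5 were Cox8b (3.63 in APOE4 and 1.35 in APOE3), Kl (3.09 and 0.86), Wfdc2 (2.81 and 1.07), Igf2 (2.19 and 1.59) and Gm20655 (1.82 and 1.81). Within arterial cells the LPS over NaCl log2 ratio of Kl was 3.45 in APOE4 and -2.45 in APOE3, that of Wfdc2 3.17 and -0.88, and that of Igf2 1.30 and -0.77, so the direction differed between genotypes for these 3. Gm20655 was lower in LPS in both (-0.40 and -0.64), and less so than in the other class. Choroid plexus also makes the Kl protein, and its summed markers were 4750, 1711, 2351 and 9184 CPM in arterial cells of APOE4 LPS, APOE4 NaCl, APOE3 LPS and APOE3 NaCl, against 27916, 23486, 7769 and 29033 CPM in the others; their part was not tested. Among the most negative were genes of neurons, Kcnip4, Lingo2, Nrg3, Cck, Chgb, Syt1 and Lrrtm4, with Kcnip4 at -5.65 and -7.62. Single arterial cells gave 89.3% of the Kcnip4 UMIs in APOE4 NaCl and 89.2% in APOE3 NaCl, and the intervals do not cover such spread between cells. Under the mural limit its arterial LPS over NaCl ratio was 0.0197 in APOE4 and 1.01 in APOE3, against 0.00919 and 0.0183 without the limit. Summed neuron markers were 166, 676, 123 and 626 CPM in arterial cells of APOE4 LPS, APOE4 NaCl, APOE3 LPS and APOE3 NaCl, against 425, 973, 366 and 140 CPM in the others, and their part in these differences was not tested.

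The last comparison set APOE4 against APOE3 in arterial cells under the same treatment. In LPS, 528 of 11101 genes were called higher in APOE4 (4.76%) and 535 lower (4.82%). In NaCl, 159 of 11828 were higher (1.34%) and 780 lower (6.59%). Arterial genes outside the rule did not separate the genotypes: 1 of 27 was higher and 1 lower in LPS (median 0.07), and 0 of 30 higher and 1 lower in NaCl (median 0.23). Venous genes were called higher in 8 of 18 cases and lower in 0 in LPS (median 0.64), or 5 of 17 and 0 without the top cell of each gene and library (median 0.00). Interferon-stimulated genes were higher in 9 of 43 and lower in 1 in LPS (median 0.21), or 7 of 42 and 1 without top cells.

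Single cells held many of the largest genotype ratios. Sele had 186 CPM in APOE4 LPS against 2.17 CPM in APOE3 LPS, 85.6-fold higher, or 11.2-fold without top cells. Gpx3, an extracellular peroxidase, was 18.8-fold higher in APOE4 LPS, or 2.51-fold without them, but its ratio lay below 1 under 3 other settings (log2 -2.19 without Gja4 in the rule, -0.88 in cells with 0 UMIs of other-cell genes and -1.60 under the mural limit). Selp was 17.8- or 3.68-fold higher, and Ackr1, the chemokine-binding protein of venules, 13.7- or 10.5-fold. Saa3 was 40.4-fold higher, or 27.8-fold without top cells, with a UMI in 31 of 57 APOE4 LPS cells against 12 of 175 APOE3 LPS cells. Its level in the remaining barcodes of these libraries was 4960 CPM in APOE4 LPS against 1092 CPM in APOE3 LPS, and the arterial level in APOE4 LPS was 4.59% of that. The part of free RNA in this difference was not tested. Gbp2 was 3.79-fold higher (2.96 to 4.84) in APOE4 LPS, or 2.98-fold, Iigp1 3.54- or 3.08-fold, Lcn2 2.70- or 2.43-fold, and Il1r1 2.34-fold. Vcam1 was 2.54-fold higher with its top cell and had a ratio of 0.832 without. Adamts9 was 1.51-fold lower in APOE4 LPS. Chil1 (2 cells against 3), Dcn (10 against 4) and 2900040C04Rik (1 cell in APOE4 LPS) completed the 8 highest and rest on few cells.

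Genes of other cells led the remaining genotype lists. In LPS, astrocyte markers were called higher in APOE4 in 8 of 12 cases and choroid plexus markers in 5 of 6, and oligodendrocyte markers lower in 7 of 9, with summed levels in APOE4 LPS and APOE3 LPS arterial cells of 3385 and 2208 CPM for astrocytes, 4750 and 2351 CPM for choroid plexus and 1038 and 2054 CPM for oligodendrocytes. St18, Edil3 and Nkain2, genes of oligodendrocytes, were among the lowest in APOE4 LPS, beside the haemoglobin genes Hba-a1, Hba-a2 and Hbb-bt. Their relative Hbb-bs was 122-fold lower in APOE4 LPS than in APOE3 LPS and 5.08-fold higher in APOE4 NaCl than in APOE3 NaCl, but the NaCl ratio was 0.943 without the doublets that Scrublet called and 0.959 thinned; summed erythroid markers were 15.5, 4408, 1312 and 859 CPM in APOE4 LPS, APOE4 NaCl, APOE3 LPS and APOE3 NaCl. The haemoglobin genes and 4 neuron genes, Clstn2, Nrg1, Kcnq5 and Dpp10, were the highest in APOE4 NaCl over APOE3 NaCl. Without called doublets the ratio was 0.364 for Hbb-bt, 0.153 for Nrg1, 0.198 for Kcnq5, 0.0255 for Dpp10 and 0 for Clstn2. Single APOE4 NaCl cells gave 97.3% of the UMIs of Clstn2, 96.5% of those of Nrg1 and 97.7% of those of Dpp10, and without top cells these 3 ratios were 0.415, 0.328 and 0.288. S100a9, S100a8, Ngp, Camp, Ltf, Wfdc21, Ecrg4 and Lcn2 were the lowest. Single APOE3 NaCl cells gave 99.9% of the UMIs of S100a9, 99.7% of those of Camp and 100% of those of S100a8, Ngp, Ltf and Wfdc21. Lcn2 had 1.06 CPM in APOE4 NaCl against 51.9 CPM in APOE3 NaCl, where 1 APOE3 NaCl cell gave 90.9% of the UMIs. The part of carried-over RNA in these genotype ratios was not tested.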

How the data were processed

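UMI counts are deposited, from 10x 3′ v3.1 libraries. The authors ran Cell Ranger, version 7.0.1 per the file headers, and version 7.0 with mm10 per the submitters' processing notes. The matrices list 32285 genes and were used as deposited: 4 filtered matrices, 1 per group, each of 3 pooled male mice. Members, gene lists and tests were chosen with earlier results of these data known. Python 3.11.15 (numpy 2.4.6, scipy 1.17.1, pandas 2.3.3) applied the limits on cells; scanpy 1.11.5 ran Scrublet, and doublets were not removed. Counts were summed by library and class; arterial sums held 646128 (APOE4 LPS), 943923 (APOE4 NaCl), 2305691 (APOE3 LPS) and 2332804 (APOE3 NaCl) UMIs. Arterial cells were tested against cells with none of the 6 genes with edgeR 4.0.16 in R 4.3.3 (TMM, filterByExpr, quasi-likelihood test, Benjamini-Hochberg), with library as a block because both sums of a library come from the same mice. DESeq2 1.42.0 was an alternative. Those 8 sums come from 4 libraries that span both treatments and genotypes, so the p-values measure the spread of the class difference over these libraries. On simulated data the test recovered 74% of 2-fold and 99.0% of 4-fold changes and called 0.0784% of unchanged genes. The simulated sums shared the same expression profile, without library effects, free RNA or doublets, so these rates need not hold for the real sums. Between libraries, CPM ratios have exact conditional binomial 95% intervals, with 0 UMIs read against a floor of 3. UMI counting leaves free RNA, doublets and cell loss in dissociation in the values.

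Genes are named by rule: in the class test, the 20 highest and 10 lowest with an adjusted p under 0.05, at least 50 UMIs and 1 sign in all 4 libraries; between LPS and NaCl, the 12 highest and 8 lowest by the near interval bound with at least 30 UMIs; between genotypes, 8 and 8; for the LPS ratio of arterial over other cells, 8 and 8 with at least 20 UMIs; and from each gene list, up to 4 with the largest change and those whose role a sentence is about. A few genes that these rules name are not reported here. Promoters are RefSeq's, build GRCm38.p6; 5 of the 6 rule genes, 24 of 30 arterial genes and 12 of 19 chemokines matched the table.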

Additional observations from a re-analysis of the deposited data

Results flagged for a closer look

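The haemoglobin genes had LPS over NaCl ratios on opposite sides of 1 in the arterial cells of the 2 genotypes; the difference was not tested. The ratio was 0.00272 in APOE4 and 1.68 in APOE3 for Hbb-bs, 0 in APOE4 and 1.32 in APOE3 for Hbb-bt, 0.00150 in APOE4 and 1.27 in APOE3 for Hba-a1, and 0.00430 in APOE4 and 1.52 in APOE3 for Hba-a2. Haemoglobin is made by red cells, and summed erythroid markers were 15.5 CPM in APOE4 LPS, 4408 CPM in APOE4 NaCl, 1312 CPM in APOE3 LPS and 859 CPM in APOE3 NaCl arterial cells, against 801, 3080, 834 and 400 CPM in cells with none of the 6 arterial genes; 2 of the 6 markers were at 0 in APOE4 LPS arterial cells, and the part of red cell RNA was not tested.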

How the results depend on the processing

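Without the library block the class test called 39 genes higher and 17 lower in arterial cells. Leaving out a library gave 280 to 511 higher and 239 to 652 lower. Higher calls were 347 without Gja4 in the rule, 236 with 0 UMIs of other-cell genes and 205 under the mural limit. Lower calls were 874 with at least 3 arterial genes, 1016 without Hey1, 320 without Gja4, 1014 with both Bmx and Sema3g, 189 with 0 other-cell UMIs, 104 under the mural limit, 360 against cells with 0 or 1 of the 6 genes, 365 by DESeq2 and 1077 with no count filter. No paired analysis was possible between libraries because each group is 1 library.

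Arterial shares (%) in APOE4 LPS, APOE4 NaCl, APOE3 LPS and APOE3 NaCl were 12.8, 21.95, 19.5 and 24.2 from 2000 UMIs; 19.2, 26.7, 24.1 and 29.3 from 4000 UMIs; 1.88, 9.10, 7.09 and 10.5 with at least 3 genes; 4.42, 6.83, 10.4 and 6.94 with both Bmx and Sema3g; 3.55, 13.0, 9.08 and 14.2 under the mural limit; and 1.10, 6.10, 2.02 and 6.38 thinned. The share was 5.76 in APOE4 LPS without Gja4; 13.7 in APOE4 NaCl, 14.4 in APOE3 LPS and 14.7 in APOE3 NaCl without Hey1; 13.5 in APOE4 NaCl, 16.7 in APOE3 LPS and 16.1 in APOE3 NaCl without Gkn3; and 13.7 in APOE3 LPS and 17.8 in APOE3 NaCl with 0 other-cell UMIs.

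Counts past 2-fold moved as follows. APOE4 LPS over NaCl, higher: 461 (3 arterial genes), 214 (thinned), 343 (30 UMIs), 1173 (1 UMI) and 339 (3-fold); lower: 656 (Bmx and Sema3g), 580 (thinned), 399 (30 UMIs) and 410 (3-fold). APOE3 LPS over NaCl, higher: 349 (3-fold); lower: 1034 (3 arterial genes), 792 (Bmx and Sema3g), 710 (thinned), 796 (30 UMIs) and 880 (3-fold). APOE4 over APOE3 in LPS, higher: 133 (thinned), 275 (without top cells), 162 (30 UMIs), 1280 (1 UMI) and 168 (3-fold); lower: 862 (3 arterial genes), 855 (0 other-cell UMIs), 822 (mural limit), 857 (without top cells), 223 (30 UMIs) and 230 (3-fold). In NaCl, higher: 391 (mural limit), 76 (without top cells), 29 (30 UMIs), 442 (1 UMI) and 35 (3-fold); lower: 447 (thinned), 262 (30 UMIs) and 356 (3-fold).

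The log2 ratio changed sign in 24 cases. APOE3 LPS over NaCl: S100a8 2.61 without called doublets and 1.02 without top cells; S100a9 4.97, 2.19 and, with 0 other-cell UMIs, 0.92; Kcnip4 0.00988 under the mural limit. APOE4 over APOE3 in LPS: Chil1 -0.27 with both Bmx and Sema3g; Gpx3 -2.19 without Gja4, -0.88 with 0 other-cell UMIs and -1.60 under the mural limit; Nkain2 0.58 without doublets. APOE4 over APOE3 in NaCl, without doublets: Hbb-bt -1.46, Hbb-bs -0.0844 (-0.0597 thinned), Clstn2 -0.57, Nrg1 -2.71, Kcnq5 -2.34 and Dpp10 -5.29; without top cells: Clstn2 -1.27, Nrg1 -1.61 and Dpp10 -1.80; Clstn2 -0.57 with 3 arterial genes and -0.96 without Hey1; Ecrg4 1.55 with both Bmx and Sema3g. Of the class test's named genes (with Saa3, without Cxcl10), 516 values kept their side, 33 lost it and 0 changed sign. The cause was not tested. The settings that need 4000 UMIs, drop Gkn3, ask for Bmx and Sema3g or leave out top cells were added after the data were seen. Depth limits the rare genes: the APOE4 LPS arterial sum is the smallest, from 57 cells.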

Other observations

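Mt2, a metallothionein induced by metals and glucocorticoids, was lower in arterial cells than in cells with none of the 6 genes (log2 fold change -0.54, SE 0.07, adjusted p = 0.0025, edgeR), as was Mt1 (-0.94, SE 0.09, adjusted p = 0.00077). Within arterial cells Mt2 had 1853 CPM in APOE4 LPS against 152 CPM in APOE4 NaCl, 12.2-fold higher, and 691 CPM in APOE3 LPS against 198 CPM in APOE3 NaCl, 3.48-fold higher. Mt1 was 4.23-fold higher in APOE4 LPS and 1.59-fold in APOE3 LPS. Of 17 measured metallothionein and oxidative-stress genes, 6 were past 2-fold higher and 0 lower in APOE4 (median log2 0.73), and 2 higher and 1 lower in APOE3 (median 0.35). Over all genes 7.43% were higher and 10.4% lower in APOE4, and 5.97% higher and 12.9% lower in APOE3, so the APOE3 counts of this list lie near the background. Of 21 glycolytic genes 7 were lower and 1 higher in arterial cells than in the other class (median -0.19); Gapdh was lower by a log2 fold change of -0.46 (SE 0.09) and Ldhb by -1.03 (SE 0.15), while the glucose transporter Slc2a1 was higher (0.27, SE 0.06). Over all genes 4.95% were higher and 4.81% lower in this test; of 22 genes of cholesterol synthesis 0 were higher and 1 lower, near that background.

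The angiogenic ligand Angpt2, which loosens the contact of mural cells, had 66.5 CPM in APOE4 LPS (16 cells) against 4.24 CPM in APOE4 NaCl (4 cells), 15.7-fold higher (5.71 to 60.2), and 108 CPM in APOE3 LPS (69 cells) against 14.6 CPM in APOE3 NaCl (23 cells), 7.41-fold higher (5.16 to 10.9). Of the VEGF, angiopoietin, apelin and ephrin genes, 4 of 22 were past 2-fold higher and 5 lower in APOE4 (median -0.54), and 4 of 23 higher and 3 lower in APOE3 (median -0.16). Over all genes the shares were 7.43% higher and 10.4% lower in APOE4 and 5.97% higher and 12.9% lower in APOE3; the APOE3 count of lower genes lies at that background.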
